A study of Mus musculus with 6 samples.

Results

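Metallothioneins are the small zinc- and copper-binding proteins of the cell, and the genes described here are the 3 metallothionein genes expressed in mouse spinal cord (Mt1, Mt2 and Mt3), the zinc-sensing transcription factor gene Mtf1, and Slc30a1, which encodes the zinc exporter ZnT1 of the plasma membrane. They were found by symbol in a table of 52513 genes, where each of the 5 symbols had 1 row. All 5 were among the 14614 genes tested, which reached 1 FPKM or more in 3 or more libraries. FPKM (fragments per kilobase of transcript, per library size) corrects a fragment count for length and depth, so levels can be compared between genes. The tissue was spinal cord, segments L4 and L5, of wild-type mice (WT in the labels, which name no strain, sex or age). One group received saline intrathecally, that is into the fluid around the cord, and the other received morphine in the same way (10 µg in 10 µL), in both cases for 7 days. Each group had 3 libraries of total RNA, numbered 1 to 3 as in their titles. The sample descriptions carry runs of numbers, shorter for library 3 of each group than for the others. Whether a library pooled several mice is not given, so the p-values measure only the spread between these libraries.

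Metallothioneins hold zinc and copper through their many cysteines and buffer the free metal in the cytosol. Free zinc binds the zinc fingers of Mtf1, which then binds metal response elements (MREs) in front of Mt1, Mt2 and Slc30a1, so that zinc excess is answered by storage and export. In brain and cord Mt1 and Mt2 are best known from astrocytes, ependyma and vessels and are also induced by glucocorticoids, cytokines and oxidative stress, whereas Mt3 is enriched in the nervous system and is known for responding little to metals.

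The morphine libraries held more metallothionein transcript than the saline libraries, while the regulator and the exporter did not pass the test. The mean level of Mt3 rose 1.30-fold and passed (limma adjusted p = 0.0456). Mt1 and Mt2 stood 1.56-fold and 1.53-fold higher, with no overlap between groups, but did not pass (limma adjusted p = 0.0713 and 0.0929). Mtf1 and Slc30a1 had ratios of 0.975 and 0.912. Thus 1 of the 5 genes was called higher and 0 lower, where 0.944% and 0.561% of all tested genes were. With unadjusted p values under 0.05 as the limit, 3 of the 5 lay higher (Mt1, Mt2 and Mt3) and 0 lower, against 11.2% and 11.1% of all tested genes. The 5 genes were chosen with earlier results of these data known, so their counts are a description and no test of the set. In 4 of the 5 the groups did not overlap, which held for 28.7% of all tested genes. Of 316 short and abundant genes (median transcript 300 to 700 nt, mean of at least 100 FPKM), 13.0% were called higher. These include the metallothioneins, and 68.4% of the 316 had morphine values all above saline. The call of Mt3 was lost in 13 of the other settings tried.

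The 3 expressed metallothionein genes and a further one, Mt4, lie in a row on the plus strand of chromosome 8 (mm10; gene models of GENCODE M21), spanning 43131 bp from the first base of Mt4 to the last of Mt1. Mt3 (ENSMUSG00000031760) occupies positions 94152607 to 94154146, Mt2 (ENSMUSG00000031762) 94172664 to 94173568 and Mt1 (ENSMUSG00000031765) 94179082 to 94180327. Mt2 and Mt1 are 5513 bp apart, and 18517 bp separate Mt3 from Mt2. The main transcripts have 3 exons each and lengths of 549 nt (Mt1), 511 nt (Mt2) and 536 nt (Mt3). Mt4, a metallothionein of stratified epithelia, was listed at 0 in all 6 libraries. Mtf1 (ENSMUSG00000028890) lies on chromosome 4 from 124802104 to 124849800 and Slc30a1 (ENSMUSG00000037434) on chromosome 1 from 191906767 to 191913247, both on the plus strand.

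The coding sequences are shown because they carry what defines the family, its cysteines, and because they bear on whether short fragments of one gene could be counted for another. They were read from the GENCODE M21 transcripts, without the stop codon, with the in-frame cysteine codons (TGC or TGT) in capitals.
Mt1: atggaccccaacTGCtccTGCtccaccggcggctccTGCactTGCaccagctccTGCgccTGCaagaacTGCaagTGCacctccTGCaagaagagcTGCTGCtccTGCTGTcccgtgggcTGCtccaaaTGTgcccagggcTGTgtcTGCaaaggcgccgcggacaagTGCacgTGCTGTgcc
Mt2: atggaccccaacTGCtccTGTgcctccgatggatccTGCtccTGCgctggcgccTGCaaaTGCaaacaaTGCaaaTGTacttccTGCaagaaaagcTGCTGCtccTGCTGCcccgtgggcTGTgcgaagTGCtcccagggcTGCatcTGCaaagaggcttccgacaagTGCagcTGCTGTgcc
Mt3: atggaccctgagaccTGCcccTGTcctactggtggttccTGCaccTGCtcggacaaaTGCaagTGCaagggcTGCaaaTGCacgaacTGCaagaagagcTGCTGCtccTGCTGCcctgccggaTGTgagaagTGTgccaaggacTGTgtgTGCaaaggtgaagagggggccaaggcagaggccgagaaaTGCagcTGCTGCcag
Each of the 3 holds 20 cysteine codons, in 61 codons for Mt1 and Mt2 (32.8%) and in 68 for Mt3 (29.4%). Codons for the acidic residues number 9 in Mt3, against 2 in Mt1 and 4 in Mt2. Aligned end to end, Mt1 and Mt2 were identical at 79.2% of 183 positions. Mt3 was identical to Mt1 at 65.7% and to Mt2 at 67.2% of 204 aligned positions. Similar as they are, the longest stretch that the main transcripts share exactly was 20 nt for Mt1 and Mt2, 27 nt for Mt1 and Mt3 and 20 nt for Mt2 and Mt3. None of the 519 stretches of 31 nt in Mt1 and none of the 506 in Mt3 occurred in the same orientation in a transcript of another gene. In Mt2, 3 of 481 did, all in Pip5k1a. An antisense gene, Gm45774, runs through Mt2 and holds 55.5% of its 31-nt stretches on the opposite strand. Its own level was 0.68 to 1.29 FPKM in the 6 libraries. The library kit was stranded, and its use in counting is not stated.

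The region before each annotated start is shown for the metallothionein genes, whose morphine values lay above saline, and for Slc30a1, the other classical Mtf1 target, whose level did not pass. The sequences come from RefSeq's promoter windows on GRCm38.p6, the assembly behind mm10, and end before the earlier of the RefSeq and GENCODE starts where the 2 are close. They cover chr8:94178839-94179081 for Mt1, chr8:94172368-94172617 for Mt2, chr8:94152357-94152606 for Mt3 and chr1:191906531-191906766 for Slc30a1, all on the plus strand. Capitals mark the MRE core, searched on both strands as TGCACNC or TGCGCNC.
Mt1: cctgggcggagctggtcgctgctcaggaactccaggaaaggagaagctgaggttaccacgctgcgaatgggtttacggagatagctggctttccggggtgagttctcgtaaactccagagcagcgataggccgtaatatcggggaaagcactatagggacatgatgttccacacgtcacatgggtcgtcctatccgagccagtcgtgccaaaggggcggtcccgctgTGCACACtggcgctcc
Mt2: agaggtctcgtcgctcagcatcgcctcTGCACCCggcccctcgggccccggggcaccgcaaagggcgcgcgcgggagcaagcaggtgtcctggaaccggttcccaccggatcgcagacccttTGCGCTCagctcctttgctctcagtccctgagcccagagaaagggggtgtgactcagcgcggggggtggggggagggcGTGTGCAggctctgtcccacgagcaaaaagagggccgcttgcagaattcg
Mt3: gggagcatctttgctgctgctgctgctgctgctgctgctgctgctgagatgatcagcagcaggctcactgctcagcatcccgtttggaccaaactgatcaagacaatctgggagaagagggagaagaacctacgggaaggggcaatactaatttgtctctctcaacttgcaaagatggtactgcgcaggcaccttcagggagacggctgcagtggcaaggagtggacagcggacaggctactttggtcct
Slc30a1: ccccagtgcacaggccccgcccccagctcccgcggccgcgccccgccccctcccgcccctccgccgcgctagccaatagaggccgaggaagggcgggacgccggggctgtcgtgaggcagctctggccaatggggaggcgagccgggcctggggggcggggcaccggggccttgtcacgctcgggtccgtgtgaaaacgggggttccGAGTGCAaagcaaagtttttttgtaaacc
Further copies lay just past the RefSeq start, an annotated position that was not checked against these libraries. The 30 bases chr8:94179089-94179118 of Mt1 hold 2 of them, and chr8:94172619-94172648 of Mt2 holds 1. Mt3 and Slc30a1 each had 1 past the start as well, at 94152634 to 94152640 (the only one of Mt3) and at 191906811 to 191906817. Those of Mt1 and Mt2 are shown.
Mt1, past the start: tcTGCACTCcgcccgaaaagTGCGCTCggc
Mt2, past the start: gtcGTGCGCAggcccaggggcgtgtgctgg
Counted over the whole window, from 250 bases before to 50 after the RefSeq start, Mt2 held 4 MRE cores, Mt1 3, Slc30a1 2, Mt3 1 and Mtf1 0. Of 32851 RefSeq windows of this length, 25.7% held at least 1, 7.11% at least 2, 1.97% at least 3 and 0.517% at least 4. The antioxidant response core TGACNNNGC, which Nrf2 is known to bind, was found once in the Mt2 window (94172539 to 94172547) and once in the Slc30a1 window, on the minus strand (191906699 to 191906707). It did not overlap an MRE core, and 12.4% of all windows held it. Sequence outside these windows was not searched, so the counts depend on where each RefSeq start is placed. A motif not found in a window, such as the antioxidant core for Mt1, may lie beyond it. These are matches of letters, and binding of Mtf1 was not measured.

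Mt1, the most abundant of the family in the morphine group, measured 819, 841 and 622 FPKM in libraries 1, 2 and 3 of the saline group, and 1185, 1383 and 1001 FPKM in those of the morphine group. The lowest morphine library lay above the highest saline library, and library 3 was the lowest and library 2 the highest of each group. The means were 761 ± 121 FPKM (saline) and 1189.7 ± 191 FPKM (morphine; SD, n = 3 each). On the log2(FPKM + 1) scale morphine exceeded saline by 0.64 (SE 0.15, 95% interval 0.29 to 1.0), a log2 fold change whose unadjusted limma p was 0.00354. Among protein-coding genes Mt1 ranked 42nd by mean level in saline and 22nd in morphine. Groups without overlap, higher in morphine, were found in 13.0% of all tested genes.

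Mt2, the second ubiquitous isoform, showed the same pattern as Mt1. Its levels were 424, 475 and 313 FPKM in saline 1, 2 and 3, against 629.7, 701 and 521 FPKM in morphine 1, 2 and 3. Again library 2 was the highest and library 3 the lowest within each group, and the groups did not overlap. The log2 fold change was 0.62 (SE 0.17, 95% interval 0.22 to 1.02) from 404 ± 82.9 to 617 ± 90.6 FPKM (SD, n = 3 each). Within a library the ratio of Mt2 to Mt1 was nearly the same everywhere, 0.503 to 0.564 in saline and 0.507 to 0.532 in morphine. The exact two-sided permutation test of its log2 values gave p = 0.9. This ratio does not depend on the scaling between libraries.

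Mt3, the isoform enriched in the nervous system, measured 722, 699 and 658 FPKM in libraries 1, 2 and 3 of the saline group, and 914, 905 and 876 FPKM in those of the morphine group. The libraries of a group differed less than for Mt1 and Mt2, and a wide gap separated the groups. The log2 fold change was 0.37 (SE 0.05, 95% interval 0.25 to 0.50), from 693 ± 32.5 to 898 ± 19.7 FPKM (SD, n = 3 each). The call rested on the libraries kept: leaving out saline 1, 2 or 3 or morphine 1 or 3 gave limma adjusted p values of 0.146, 0.147, 0.105, 0.152 and 0.136, and leaving out morphine 2 gave 0.0365. It was also lost after quantile normalization, with a log2 fold change of 0.15 (adjusted p = 0.127).

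**Figure D1:**
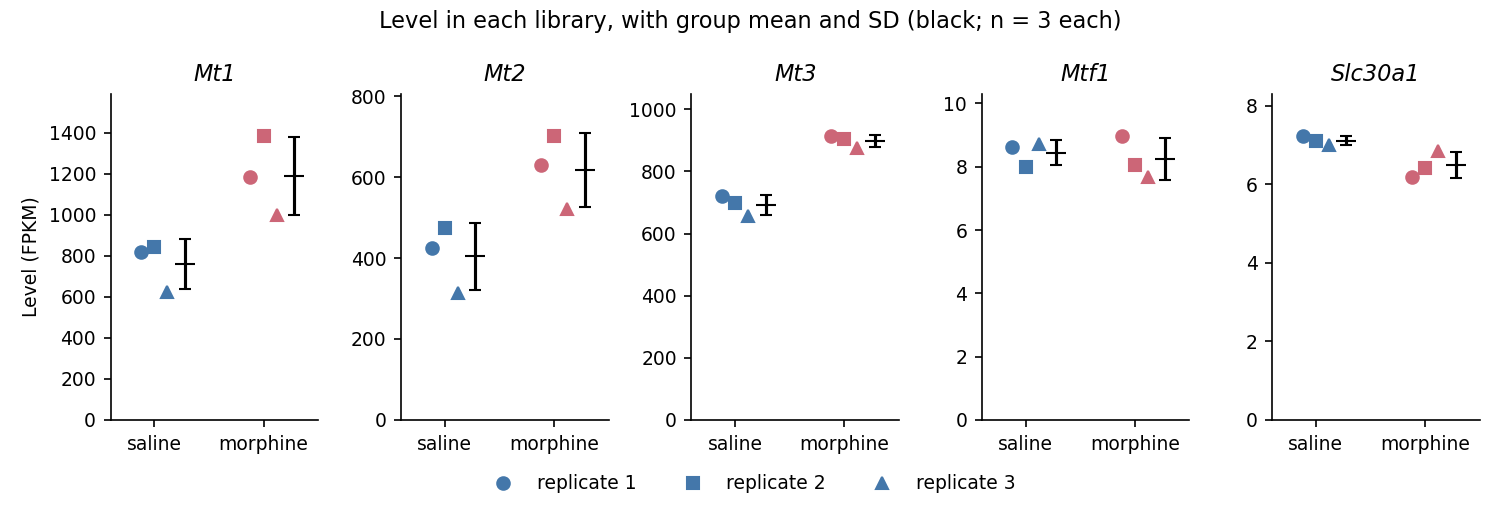
Level (FPKM, linear axis from 0) of each of the 5 genes in every library. Symbols give the replicate number, blue is saline and red morphine, and the black bar is the group mean with its SD (n = 3 each). The 3 morphine values of Mt1, Mt2 and Mt3 lie above all saline values, those of Slc30a1 lie below, and those of Mtf1 overlap with saline.

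Summed over the 3 genes, metallothionein transcript came to 1965, 2015 and 1593 FPKM in saline 1, 2 and 3, against 2728, 2989 and 2398 FPKM in morphine 1, 2 and 3. The fold of the means was 1.46, and 1.33 with each library rescaled to the same total (as in the TPM unit). The exact two-sided permutation p was 0.1, the smallest that 3 against 3 libraries allow. The order of the isoforms was not fixed. Mt1 led Mt3 in 5 libraries and Mt3 led in saline 3, at 1.06 times Mt1, while Mt2 was the lowest of the 3 everywhere. Mt3 made up 34.7% to 41.3% of the sum in saline and 30.3% to 36.5% in morphine. These ranges overlap, and the ratio of Mt3 to the other 2 isoforms together had a log2 difference of -0.26 (exact two-sided permutation p = 0.2), so a smaller change of Mt3 than of Mt1 and Mt2 was not shown.

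**Figure D2:**
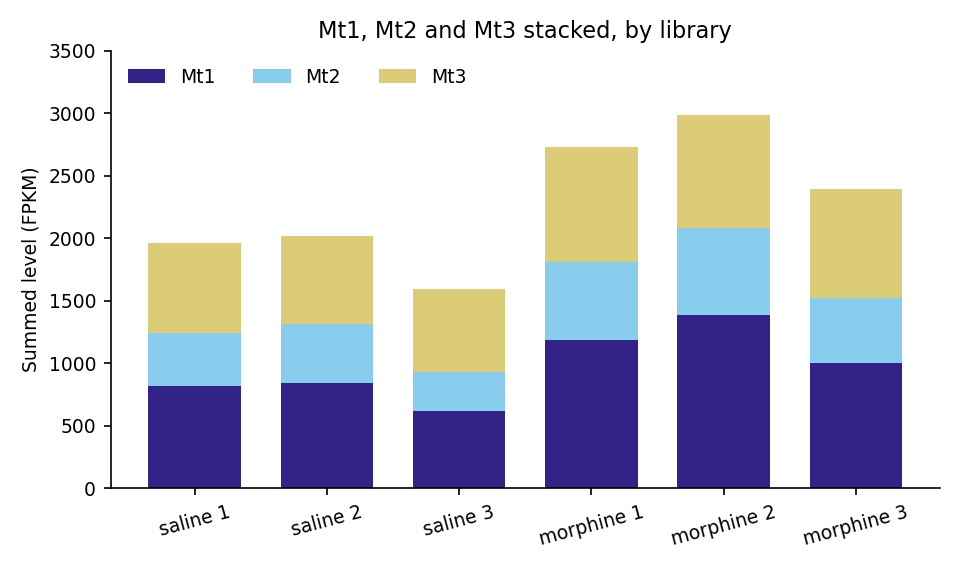
Levels of Mt1, Mt2 and Mt3 (FPKM) stacked for each of the 6 libraries, from 0. The 3 morphine bars reach 2398 to 2989 FPKM and the 3 saline bars 1593 to 2015 FPKM.

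Across all genes the fold change also moved with the length and abundance of a transcript, and the metallothionein transcripts are short and abundant. Tested genes with a median transcript length of 300 to 700 nt had a median log2 fold change of 0.07, against -0.09 for genes over 3000 nt. In the 316 of these short genes with a mean of at least 100 FPKM, which include the metallothioneins, the median was 0.25, 68.4% had morphine values all above saline, and 13.0% were called higher. Of these 316, 98.7% had a smaller log2 fold change than Mt1, 98.1% than Mt2 and 87.0% than Mt3. With the trend on exon length taken out of each library, the log2 fold changes of Mt1, Mt2 and Mt3 were 0.52, 0.45 and 0.24 (limma adjusted p = 0.159, 0.267 and 0.0961). With median transcript length, a measure chosen after seeing the data, they were 0.59, 0.51 and 0.27 (limma adjusted p = 0.104, 0.173 and 0.0704). The call of Mt3 was lost in both.

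**Figure D3:**
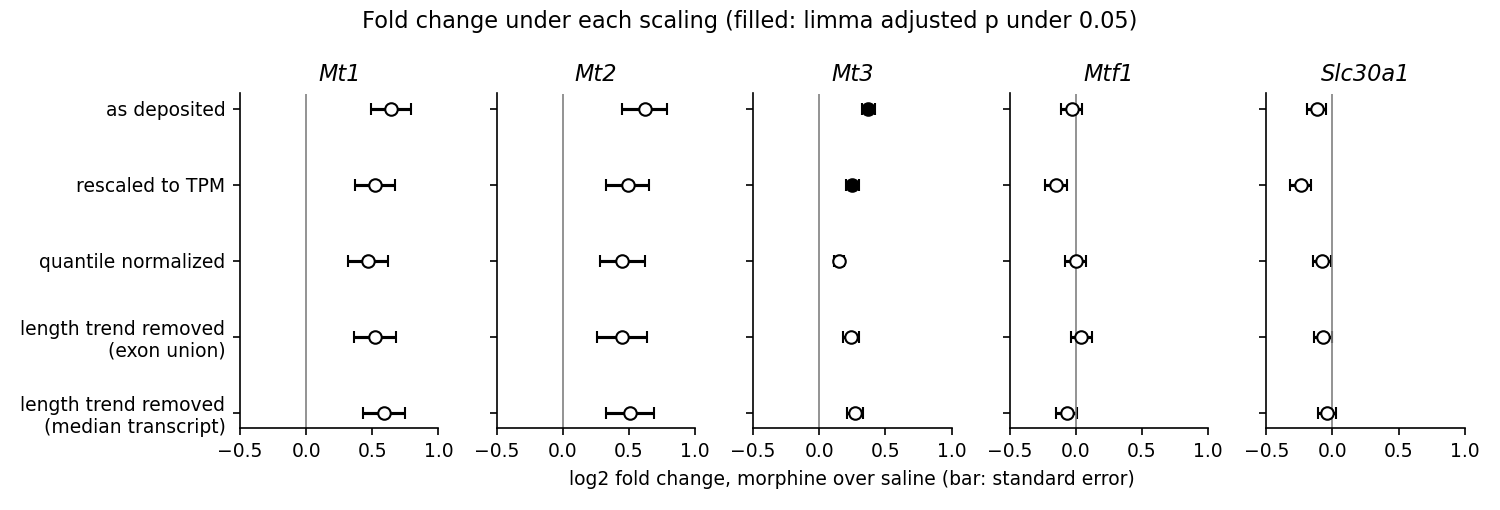
Log2 fold change of each gene (point) with its standard error (bar) for the values as deposited, rescaled to TPM, quantile normalized, and with the length trend removed by 2 measures of length. Filled points passed at a limma adjusted p under 0.05. Mt1, Mt2 and Mt3 stay above 0 in each row, and Mt3 passes in the first 2.

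Mtf1, the zinc sensor that switches on Mt1 and Mt2, measured 8.64, 8.00 and 8.71 FPKM in libraries 1, 2 and 3 of the saline group, and 8.97, 8.06 and 7.69 FPKM in those of the morphine group. The groups overlapped. The log2 fold change was -0.03 (SE 0.08, 95% interval -0.23 to 0.16; limma adjusted p = 0.836), and its sign turned after quantile normalization or removal of the length trend on exon length. These values are transcript levels, and the activity or metal loading of the protein was not measured.

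Slc30a1, the exporter, measured 7.23, 7.11 and 7.00 FPKM in libraries 1, 2 and 3 of the saline group, and 6.20, 6.42 and 6.85 FPKM in those of the morphine group. Its morphine values all lay below its saline values, opposite to the metallothioneins, by a small margin. Groups without overlap in this direction were found in 15.7% of tested genes. The log2 fold change was -0.12 (SE 0.07, 95% interval -0.29 to 0.05; limma adjusted p = 0.387), and it stayed below 0 in every setting tried. Mtf1 stood above Slc30a1 in every library, by 1.12 to 1.45 times, and both were far below Mt2, the scarcest of the 3 metallothioneins. Mtf1 overlaps 1110065P20Rik and Slc30a1 overlaps 1700034H15Rik on the opposite strand, and Mtf1 also holds the small gene n-R5s192 on its own strand.

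The other genes of zinc transport were read from lists of the 2 transporter families. Of 10 zinc exporters of the Slc30 family (Slc30a1 included), 8 were tested, and limma called 0 of them. At an unadjusted p under 0.05 there were 0, where 11.2% of all tested genes were higher and 11.1% lower. The median log2 fold change was -0.02, as over all tested genes (-0.02). Besides Slc30a1, the smallest p belonged to Slc30a7, a transporter of the early secretory pathway, at 4.06, 4.38 and 3.67 (saline) against 5.34, 3.83 and 4.94 FPKM (morphine). Its groups overlapped.

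Zinc importers of the Slc39 family had lower levels in the morphine group in each of the 11 members tested of 14 listed, with a median log2 fold change of -0.21 and a range from -0.30 to -0.09. All log2 fold changes of these genes were below 0 under each of the 4 other scalings too, with medians of -0.33 (TPM), -0.17 (quantile normalization), -0.16 (exon length) and -0.21 (median transcript length). By limma, adjusted over all genes, 0 of the 11 passed. At an unadjusted p under 0.05 there were 4, and in 6 the groups did not overlap, all lower, where 11.1% and 15.7% of all tested genes were. Of all tested genes 53.1% had a log2 fold change below 0, and 73.3% after rescaling to TPM. Slc39a12, the ZIP12 importer of astrocytes and neurons, was at 51.0, 51.9 and 52.3 (saline) against 40.6, 47.1 and 40.7 FPKM (morphine) (log2 fold change -0.27, adjusted p = 0.0891). Slc39a6, the ZIP6 importer, was at 17.7, 18.3 and 19.5 (saline) against 15.5, 14.8 and 17.0 FPKM (morphine) (adjusted p = 0.155). With rescaling to TPM, which moves the median of all genes from -0.02 to -0.13, Slc39a12 passed at a log2 fold change of -0.40 (adjusted p = 0.0406), as it did without morphine 2, at -0.34 (adjusted p = 0.0365).

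Copper and iron genes pointed in both directions. Of 10 tested copper genes, 0 passed in limma's test, with 4 higher and 0 lower at an unadjusted p under 0.05 (11.2% and 11.1% of all tested genes). The trend with transcript length and abundance described above was not taken out of these counts. The median log2 fold change of the copper list was 0.09, and -0.03 after rescaling to TPM and 0.05 with the trend on exon length removed. Sod1, the copper- and zinc-containing superoxide dismutase, was at 455, 477 and 480 (saline) against 585, 531 and 557 FPKM (morphine) (log2 fold change 0.24, adjusted p = 0.0671). Atox1, the chaperone that carries copper to the Golgi, was at 108, 95.8 and 90.6 (saline) against 122, 119 and 119 FPKM (morphine) (log2 fold change 0.29, adjusted p = 0.0771). Groups did not overlap for either gene. Without morphine 2, Sod1 and Cox17, a copper chaperone of the mitochondria, passed at log2 fold changes of 0.28 and 0.44 (adjusted p = 0.0453 and 0.0365). Of 7 tested iron genes, 0 passed, with 1 higher and 1 lower at an unadjusted p under 0.05. Fth1, the ferritin heavy chain, was at 5162, 5422 and 4315 (saline) against 6281, 6942 and 5475 FPKM (morphine) (adjusted p = 0.157), and Hmox1, which frees iron from haem, was at 5.66 ± 0.146 and 4.77 ± 0.355 FPKM (SD, n = 3 each; adjusted p = 0.191). Like Mt1, Mt2 and the summed oligodendrocyte markers given below, Fth1 was highest in library 2 and lowest in library 3 of each group.

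**Figure D4:**
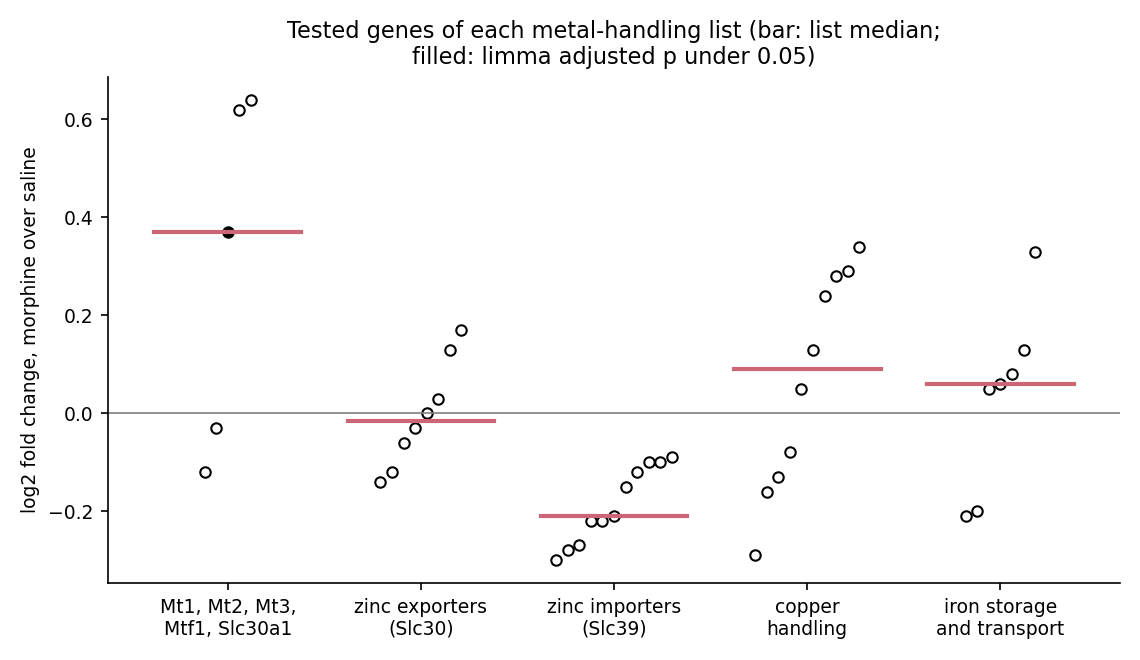
Log2 fold change, morphine over saline, of every tested gene (circle) in the 5 genes described and in the lists of zinc exporters, zinc importers, copper genes and iron genes, with the list median as a red bar. Slc30a1 appears in the first and second columns, and 1 point, Mt3, is filled for a limma adjusted p under 0.05. All 11 zinc importers lie below 0.

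Around the cluster on chromosome 8, the metallothionein genes had log2 fold changes of 0.37 to 0.64, and their difference from the neighbouring genes was not tested. Tested protein-coding genes within 250 kb of the cluster had log2 fold changes from -0.27 (Herpud1, of the ER stress response) to 0.25 (Bbs2, of the primary cilium), and none of them passed. Nup93, a nuclear pore protein and the nearest tested coding gene beyond Mt1, starts 35.5 kb from it and had a log2 fold change of -0.24 (adjusted p = 0.204). Gm45774, antisense to Mt2, was at 0.93, 1.05 and 0.68 (saline) against 1.29, 1.05 and 0.81 FPKM (morphine) (log2 fold change 0.12). Its groups overlapped.

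**Figure D5:**
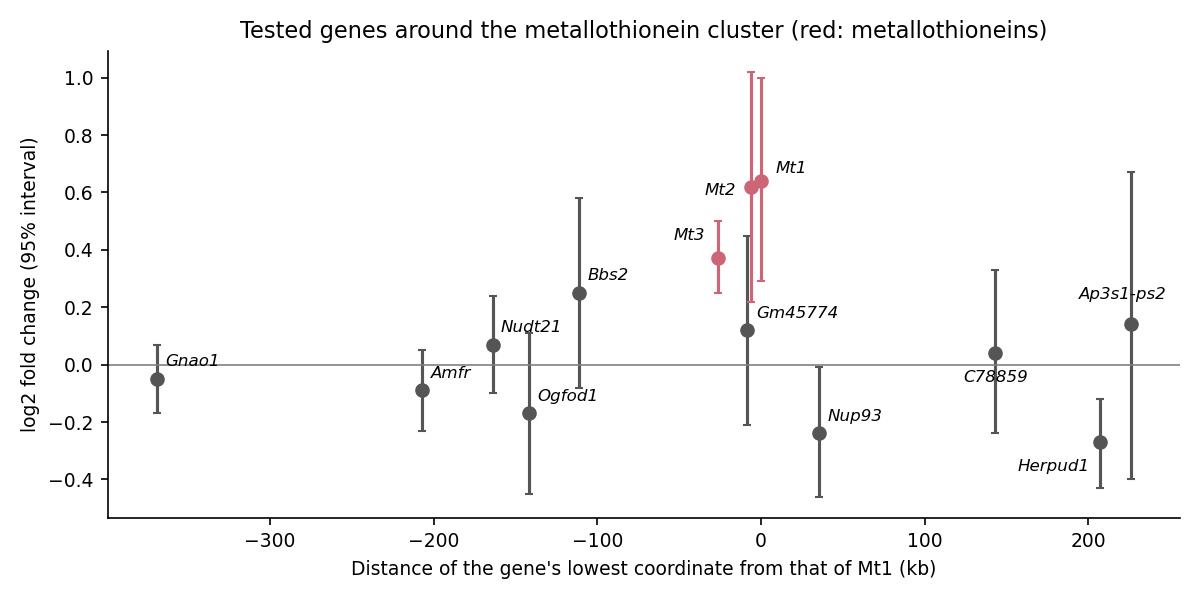
Log2 fold change with its 95% interval for the tested genes around the metallothionein cluster, against the distance in kb of each gene's lowest coordinate from that of Mt1. The 3 metallothioneins (red) are at 0.37 to 0.64, and the other genes (grey) at -0.27 to 0.25.

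The genes most like each of the 5 over the 6 libraries, by Pearson's r of log2(FPKM + 1) among 7069 genes with a mean of at least 10 FPKM, are given as a description, since the libraries share the 2 treatments and such values include the group difference. For Mt1 they were Grb14, Cenpb and Tmbim4 (r = 0.993, 0.993 and 0.991), and Mt2 came next, at r = 0.990. For Mt2 they were Tmbim4, Arhgef10 and Mast3 (r = 0.998, 0.998 and 0.994), with Mt1 in 5th place. A high r does not mean a change of like size: their log2 fold changes were 0.08, 0.44 and 0.31, against 0.62 for Mt2. Grb14, an adaptor of insulin receptor signalling, was at 52.7, 51.0 and 42.4 (saline) against 68.9, 76.1 and 57.8 FPKM (morphine), the same order of libraries within each group except that saline 1 exceeded saline 2. Mt3 was nearest to Fis1, Eef1d and Pvalb (r = 0.994, 0.993 and 0.991), and Mt1 and Mt2 came 199th and 331st. Pvalb, the calcium buffer parvalbumin, was at 104, 100.4 and 96.6 (saline) against 131, 125 and 120.5 FPKM (morphine). Mtf1 was nearest to Zfp260, Kat8 and Sac3d1 (r = 0.978, 0.977 and 0.976) and Slc30a1 to Cant1, Pex13 and Sh2d3c (r = 0.989, 0.988 and 0.985).

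Markers of the cells that could carry these transcripts were read in the same libraries. In bulk tissue fewer cells of a type and less RNA per cell cannot be told apart. The 10 astrocyte markers, all tested, summed to 1918 to 2194 FPKM in saline and 2136 to 2396 FPKM in morphine. Their log2 fold changes were above 0 in 5 and below 0 in 5, and 1 was called higher (0.944% of all tested genes). This was Sox9, an astrocyte transcription factor, at 5.41, 5.37 and 5.17 (saline) against 7.55, 8.47 and 7.50 FPKM (morphine) (limma adjusted p = 0.0463). Without saline 1, 2 or 3 or morphine 1 or 3 its adjusted p was 0.107 to 0.153, and 0.0399 without morphine 2. Gfap, the filament protein of astrocytes, was at 594, 579 and 386 (saline) against 455, 711 and 445 FPKM (morphine), Aldoc, an astrocytic aldolase, at 912 ± 15.1 and 1053 ± 32.0 FPKM, and Agt, angiotensinogen, at 126 ± 13.4 and 151 ± 10.4 FPKM (saline and morphine, SD, n = 3 each). Other markers had lower values in morphine without overlap: the water channel gene Aqp4 (129 ± 7.72 and 103 ± 14.6 FPKM), the glutamate transporter gene Slc1a2 (131 ± 2.65 and 118 ± 3.96 FPKM) and the connexin gene Gja1 (126 ± 2.81 and 119 ± 5.34 FPKM; SD, n = 3 each). In the astrocyte list 3 members were higher and 2 lower at an unadjusted p under 0.05 (11.2% and 11.1% of all tested genes). The groups did not overlap in 2 higher and 3 lower (13.0% and 15.7% of all tested genes). Gfap and the 8 oligodendrocyte markers, which summed to 20104, 21126 and 14459 (saline) against 18011, 22501 and 16596 FPKM (morphine), were low in saline 3, as were Mt1 and Mt2. The oligodendrocyte sum was also highest in library 2 and lowest in library 3 of each group, the order of Mt1 and Mt2. The 8 ependymal markers summed to 20.0 to 25.3 FPKM in saline and 27.3 to 29.3 FPKM in morphine, with 1 of 6 tested members called higher (0.944% of all tested genes), Ccdc153, a gene of motile cilia, from 0.240 to 1.48 FPKM (adjusted p = 0.0488, and 0.118 to 0.160 with any library but morphine 2 left out). Sox9 and Ccdc153 also lost their calls with no filter, with no intensity trend, with the length trend removed and with the replicate block (adjusted p = 0.0548 to 0.0992 for Sox9 and 0.0611 to 0.0999 for Ccdc153), and Ccdc153 after quantile normalization (0.0598) and with pseudocounts of 0.1 and 0.5 (0.0639 and 0.0534). All 6 tested ependymal markers had log2 fold changes above 0, with a median of 0.34 against -0.02 over all tested genes. In 3 of them morphine lay above saline without overlap (13.0% of all tested genes). The ependymal transcription factor Foxj1, 1 of the 6, was at 9.67 ± 1.43 and 9.85 ± 1.28 FPKM (SD, n = 3 each). The 8 endothelial markers summed to 112 to 127 FPKM in saline and 101 to 125 FPKM in morphine, and 0 of 8 passed. Their log2 fold changes were below 0 in 7 and above 0 in 1, with a median of -0.31. At an unadjusted p under 0.05, 4 were lower (11.1% of all tested genes), and in 4 the groups did not overlap, all lower (15.7%). Meningeal fibroblast markers ranged from 77.8 to 114 FPKM in saline and from 25.1 to 93.6 FPKM in morphine. None of these cell type lists was at 0, and their part in the metallothionein levels was not tested.

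The groups also differed in total FPKM, in depth and in estimated fragment length. The 6 columns summed to 662470 to 670280 FPKM in saline and 720234 to 741145 FPKM in morphine. Depth, estimated from the steps between low FPKM values, was about 20800000 to 25100000 fragments for saline and 17000000 to 19000000 for morphine. The mean fragment length from the same estimate was 212, 209 and 215 nt in saline 1, 2 and 3, against 202, 206 and 208 nt in morphine 1, 2 and 3. What this difference does to the FPKM of short transcripts was not tested. At these depths Mt1 rested on about 4344 to 8099 fragments per library, Mt2 on 1936 to 3717, Mt3 on 4413 to 5828, Mtf1 on 1017 to 1491 and Slc30a1 on 551 to 899. The counting error was then at most 1.52%, 2.27%, 1.51%, 3.14% and 4.26% of the level (1 SD, Poisson). Motor neuron markers were uneven, summing to 157, 145 and 26.6 FPKM in saline 1, 2 and 3, against 48.4, 146 and 16.4 FPKM in morphine 1, 2 and 3. Lumbar Hox genes summed to 117 to 139.8 FPKM in saline and 102 to 136 FPKM in morphine. Markers of red cells summed to 757 to 1077 FPKM in saline and to 421 to 595 FPKM in morphine, and those of dorsal root ganglion to 3.16 FPKM or less.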

How the data were processed

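RNA of 3 saline and 3 morphine libraries was measured by sequencing. The authors deposited FPKM values with 2 decimals for 52513 genes, in columns whose names are the sample descriptions. The submitters' processing notes name RSEM, STAR and Trimmomatic, bcl2fastq 2.19.0 and build mm10, with no further versions, annotation or strand setting.

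Values were taken as log2(FPKM + 1) without rescaling, keeping genes that reached 1 FPKM in 3 or more libraries. A linear model for the 2 groups was fitted by limma 3.58.1 under R 4.3.3, its prior variance following intensity, two-sided, with Benjamini-Hochberg adjustment over 14614 genes and a threshold of 0.05. Sums and ratios had exact permutation tests over libraries (Python 3.11.15, NumPy 2.4.6). pandas 2.3.3, SciPy 1.17.1 and matplotlib 3.10.9 served tables and plots. The fit was tested on 5 simulated sets, with noise drawn independently for each gene. It recovered 49.0% of 1.5-fold, 82.7% of 2-fold and 93.9% of 3-fold changes, and 3.46% of calls were false. Variation that many genes of a library share was not simulated. Depth was fitted to genes with 1 transcript of 300 to 700 nt and under 8 fragments, of which 82.7% to 85.9% lay within 0.1 of a whole fragment (or within the rounding of the table) against 20.0% if even. Gene models came from GENCODE M21, promoters from RefSeq, where all 5 genes and Mt4 were matched.

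Named genes are the 5 genes, up to 4 passing members of each pathway or inducer list (or 2 with the smallest p), the 3 most abundant markers of a cell type where they are given beside a result, and the 3 most similar genes. The members and lists were chosen with earlier results of these data known. Names outside the rule, chosen after their values were seen, are Cox17, Sox9, Aqp4, Slc1a2, Gja1, Foxj1, Ccdc153, Gm45774 and the neighbours of the cluster. Alternatives were other pseudocounts, filters and scalings, removal of the length trend, a replicate block and leaving out each library.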

Additional observations from a re-analysis of the deposited data

How the results depend on the processing

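Mt1, Mt2 and Mt3 kept a positive and Slc30a1 a negative log2 fold change in the 12 other settings and with each of the 6 libraries left out. With 1 library left out the log2 fold changes ran from 0.51 to 0.76 (Mt1), 0.45 to 0.75 (Mt2), 0.34 to 0.40 (Mt3), -0.09 to 0.01 (Mtf1) and -0.15 to -0.09 (Slc30a1). Mt3 lost its call at 0.37 with no filter or with no intensity trend (limma adjusted p = 0.0992 and 0.0755), at 0.15 after quantile normalization (0.127), at 0.24 with the length trend on exon length removed (0.0961) and at 0.27 with median transcript length (0.0704), a setting added after seeing the data. Over the 12 settings the adjusted p of Mt3 ran from 0.0385 to 0.127. The sign of Mtf1 turned to 0.00 after quantile normalization, to 0.04 with the length trend removed (with or without the block) and to 0.01 without morphine 3, and that of the log2 ratio of Mt2 to Mt1 to 0.03 without saline 2 (otherwise -0.06 to 0.00). The fold of the sum was 1.36 to 1.54 with 1 library left out. The cause of these changes was not tested.

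Whether the numbers in the titles pair the libraries was not tested, and their deviations from the group means gave a mixed picture. These correlated by -0.13, 0.16 and 0.29 for numbers 1, 2 and 3, and by -0.34 to 0.24 for unlike numbers. Saline 2 and saline 3 each correlated best with the morphine library of the same number, and saline 1 with morphine 2 (0.24). With the replicate block Mt1 and Mt2 passed at unchanged log2 fold changes of 0.64 and 0.62 (limma adjusted p = 0.0356 each) and Mt3 did not at 0.37 (0.0521). With the block and the length trend removed Mt3 was at 0.24, and at 0.27 by median transcript length (adjusted p = 0.0809 and 0.0871).

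Of the 5 genes, 2 were called higher with the block, 1 without morphine 2, and 0 without each of the other libraries, with no filter, after quantile normalization, with no intensity trend or with the length trend removed in any of the 4 ways. Over all genes 138 were higher and 82 lower. This became 6 and 2 with no filter, 231 higher with a filter of 5 FPKM, 853 lower with TPM, 47 higher after quantile normalization, 14 and 20 with the length trend removed (16 and 25 by median transcript length), 14 and 22 with no intensity trend, 17 and 7 with the block, and 5 and 5 with block and length trend (9 and 6 by median transcript length). With 1 library left out it ran from 0 to 531 higher and from 1 to 274 lower, the highest without morphine 2. Of the 35 other tested metal genes none was called, except 1 lower with TPM (Slc39a12), and 2 higher (Sod1 and Cox17) and 1 lower (Slc39a12) without morphine 2, so the range over left-out libraries was 0 to 2 and 0 to 1.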

Other observations

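Metallothioneins are known to answer other signals than zinc, and 4 short lists of genes that answer the same signals were read in the same fit. Of 12 glucocorticoid-responsive genes, all tested, 0 passed limma's test, and the median log2 fold change was -0.13 (-0.02 over all tested genes). At an unadjusted p under 0.05, 1 was higher and 0 lower (11.2% and 11.1% of all tested genes). Fkbp5, a cochaperone of steroid receptors, measured 10.45, 11.1 and 8.13 FPKM in libraries 1, 2 and 3 of the saline group, and 12.4, 16.7 and 11.3 FPKM in those of the morphine group (log2 fold change 0.40, adjusted p = 0.205). Its groups did not overlap, with morphine above, as in 13.0% of all tested genes. Library 2 was the highest and library 3 the lowest of each group, as for Mt1, Mt2 and the summed oligodendrocyte markers. Cdkn1a, the cell cycle inhibitor p21, was at 12.9, 15.2 and 8.85 (saline) against 20.3, 22.4 and 12.5 FPKM (morphine) (log2 fold change 0.53, adjusted p = 0.263), with overlapping groups and the same order of libraries. Of the 12 log2 fold changes, 9 were below 0.

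Heat shock genes fell in 5 of 12 tested members and rose in 0 by limma, where 0.561% of all tested genes were called lower. Hspa1b, an inducible Hsp70, went from 19.9 ± 5.23 to 3.99 ± 0.492 FPKM (adjusted p = 0.0149) and its near-identical copy Hspa1a from 8.78 ± 3.26 to 1.30 ± 0.0777 FPKM (adjusted p = 0.0361), a pair between which the division of fragments is uncertain. Dnajb1 and Chordc1, cochaperones, fell to 18.8 ± 0.255 and 20.1 ± 0.993 FPKM from 28.6 ± 2.04 and 29.0 ± 1.33 FPKM (SD, n = 3 each; adjusted p = 0.0375 and 0.0434). The number passing depended on the processing and on the libraries. It was 0 with no filter, 2 with no intensity trend, 2 with the replicate block, 1 with the block and the length trend removed, 3 or 4 with the length trend removed alone, 7 after quantile normalization and 8 with TPM. Among libraries left out, 0 of the 12 passed without saline 1, saline 3, morphine 1 or morphine 3, 2 without saline 2 and 7 without morphine 2. In the interleukin 6 and STAT3 list 8 of 12 genes were tested and 0 passed in limma. At an unadjusted p under 0.05, 0 were higher and 2 lower, against 11.2% and 11.1% of all tested genes. Stat3, the transcription factor of the pathway, was at 22.2, 20.0 and 18.4 (saline) against 14.95, 17.6 and 14.3 FPKM (morphine) (adjusted p = 0.103), and Il6st, the shared receptor subunit gp130, at 16.0 ± 0.783 and 13.1 ± 1.2 FPKM (SD, n = 3 each; adjusted p = 0.112). Of 10 genes of the oxidative stress response, 0 passed. At an unadjusted p under 0.05, 0 were higher and 3 lower (11.2% and 11.1% of all tested genes). Txnrd1, thioredoxin reductase, was at 25.6, 23.1 and 24.6 (saline) against 17.3, 20.1 and 18.9 FPKM (morphine) (adjusted p = 0.0616), and Gsr, glutathione reductase, at 10.4 ± 1.13 and 8.47 ± 0.352 FPKM (SD, n = 3 each; adjusted p = 0.155).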
